A study of Mus musculus with 12 samples.

Results

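The 47 genes described here belong to the cell cycle and to mitosis. By role they are G1 cyclins and their kinases (7 genes), transcription factors of the cycle (4), replication genes (10), enzymes that supply DNA precursors (3), Cdk1 with the cyclins of the G2 and M phases (4), mitosis genes (15) and inhibitors (4). They were chosen by name as known genes of the cell cycle, with earlier results of these data known, and all 47 were found among the 24421 listed genes. RNA of newborn mouse liver and lung was sequenced in 12 libraries, 3 per genotype in either organ. WT mice were Man1a2+/+ and Null mice were Man1a2-/-, pups of crosses of Man1a2+/- parents that carry the Man1a2tm1.1Ahe allele, a deletion of exon 2. Tissue was taken within the hour after birth, and the labels name no treatment. Libraries were made from polyadenylated RNA of liver or lung tissue that was not sorted into cell types. Whether equal replicate numbers stand for the same pup is not given in the labels, so the p-values measure the spread between these libraries.

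Cells enter the cycle when D-type cyclins with Cdk4 and E-type cyclins with Cdk2 release the E2F factors, which switch on the genes that license and copy DNA. Later, Cdk1 with cyclins A and B drives mitosis, and Mybl2 and Foxm1 switch on the mitotic genes. Cdkn1a (p21), Cdkn1b (p27) and Cdkn2c (p18) hold cyclin-dependent kinases back, and Wee1 restrains Cdk1 by phosphorylation. The newborn liver still makes blood, so its dividing cells include precursors of blood cells besides hepatocytes. In whole tissue, fewer dividing cells and less RNA per cell cannot be told apart.

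Library totals ran from 26759463 to 42914295 counts, so a count of 0 allows at most 0.0699 to 0.112 CPM (counts scaled to the library total). Man1a2 was measured on that scale at 71.5, 40.7 and 56.8 CPM in WT livers and at 40.2, 36.7 and 33.7 CPM in Null livers. In lungs it was at 141, 105 and 148 CPM in WT and at 55.9, 59.4 and 63.4 CPM in Null. Its log2 fold change was -0.47 in liver and -1.01 in lung, and neither was called (edgeR adjusted p = 0.0809 and 0.0614). Without the library labelled Null lung 1 the lung value was -0.95 (edgeR adjusted p = 0.0043), which was called. These counts cover the whole gene and not exon 2 alone, so they do not test the deletion. All other levels are CPM with TMM scaling among the 6 libraries of a tissue, so they are compared within a tissue only. The library labelled Null lung 1 stood apart, with a correlation of 0.839 to 0.86 with the other lung libraries. Its 9 markers of lung epithelium summed to 698 CPM against 26751 to 35144 CPM in the other 5 lungs, with the surfactant gene Sftpc at 35.3 CPM against 15725 to 22458 CPM. Its 7 mesenchyme markers summed to 16919 CPM against 3101 to 3621 CPM. Its composition therefore goes against its label, and the main lung results are given with and without it. Null liver 1 had a mesenchyme sum of 2236 CPM against 346 to 448 CPM in the other livers, and WT liver 2 had Sftpc at 30.7 CPM against at most 4.25 CPM.

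In Null liver, 12 of the 47 genes were called higher than in WT liver and 0 lower. They were the inhibitors Cdkn1a, Cdkn1b and Wee1, the factors E2f8 and Foxm1, the licensing factor Cdt1, Cdk1 and its cyclin Ccnb1, and the mitosis genes Mki67, Aurkb, Cenpf and Kif11. A gene was called when edgeR's quasi-likelihood test, adjusted by Benjamini-Hochberg over all genes tested, gave a p-value under 0.05 and the change was at least 1.2-fold. By this rule 26.9% of all 14343 genes tested in liver were called, 13.5% higher and 13.4% lower. The share of the 47 called, 12 genes, was thus near the share among all genes. Their split was 12 higher and 0 lower, and that of all genes was 1931 higher and 1925 lower. The median log2 fold change of the 47 was 0.26, against 0.02 for all genes, and 38 of the 47 had a positive value.

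Of the roles, the inhibitors had the highest median log2 fold change, 0.82. Cdkn1a, on chromosome 17 at 29090976 to 29100727 of GRCm38, was at 84.8, 51.5 and 68.3 CPM in WT livers and at 138, 167 and 211 CPM in Null livers. All 3 Null libraries lay above all WT libraries, and the log2 fold change was 1.33 ± 0.22 (SE, adjusted p = 0.00661). Cdkn1b, on chromosome 6 at 134920401 to 134925513, was at 27.1, 22.8 and 24.5 CPM in WT and at 48.4, 36.8 and 45.7 CPM in Null, again without overlap, with a log2 fold change of 0.82 ± 0.13 (SE, adjusted p = 0.00571). Wee1, the kinase that delays mitosis, lies on chromosome 7 at 110122046 to 110143286 and was at 11.4, 9.38 and 10 CPM in WT and at 19.5, 14.7 and 20.7 CPM in Null. It did not overlap either, and its log2 fold change was 0.83 ± 0.16 (SE, adjusted p = 0.0103). Cdkn2c, the INK4 inhibitor of Cdk4 and Cdk6, was at 24.1, 17.5 and 21.9 CPM in WT and at 27.6, 27.2 and 14.1 CPM in Null. Its Null libraries fell on both sides of WT, with a log2 fold change of 0.12 ± 0.26 (SE, adjusted p = 0.76).

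**Figure D1:**
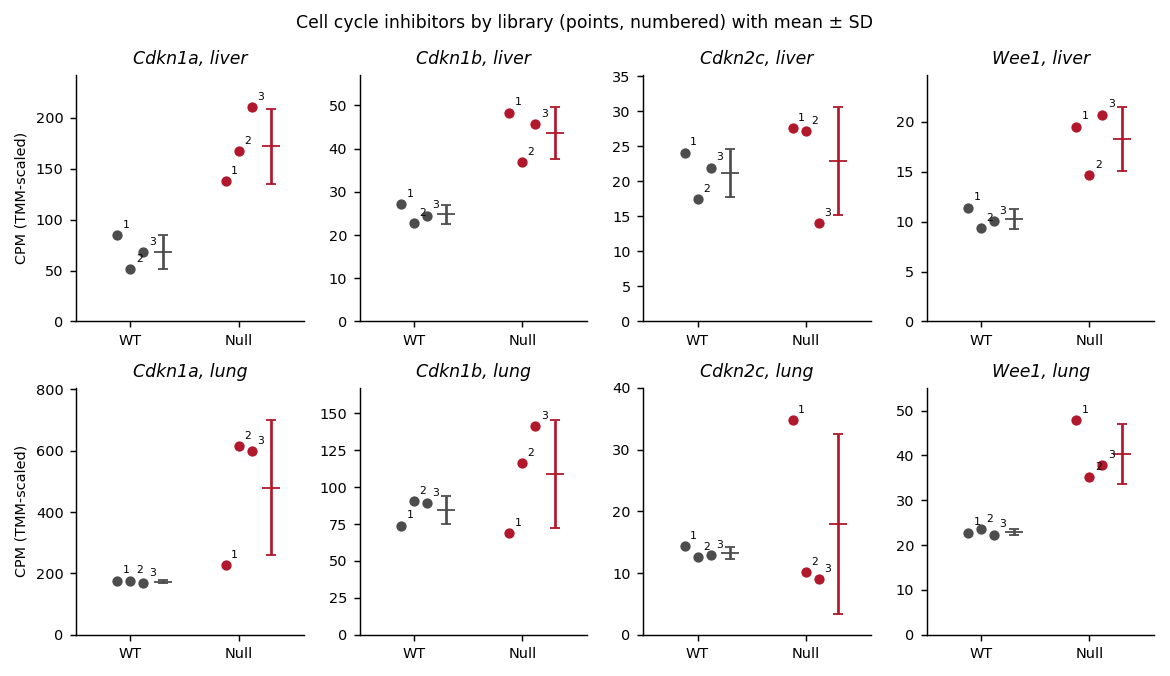
Level of each of the 4 inhibitors in every library, in TMM-scaled CPM on a linear axis from 0, for liver (top) and lung (bottom). Points are libraries with their number, and the bar beside them is the mean ± SD of the 3. In liver, Cdkn1a, Cdkn1b and Wee1 do not overlap between genotypes and Cdkn2c does, and in lung Cdkn1a stands at 226 CPM in the library labelled Null 1 against 614 and 599 CPM in Null 2 and Null 3.

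G1 cyclins and kinases gave 0 of 7 called in liver, with 0 of 7 at an unadjusted p under 0.05 and 0 by DESeq2. In liver, an unadjusted p under 0.05 in edgeR was reached by 19 of the 47 and by 41.4% of all genes. DESeq2 called 17 of the 47 and 24% of all genes. The G1 genes had a median log2 fold change of -0.22. Ccnd3, the most abundant of them by CPM, was at 191, 164 and 207 CPM in WT and at 203, 225 and 164 CPM in Null. Cdk4, the partner of the D-type cyclins, was at 105, 112 and 114 CPM in WT and at 87, 97.2 and 98.7 CPM in Null. Cdk4 was lower in every Null library than in every WT library, with a log2 fold change of -0.22 ± 0.10 (SE, adjusted p = 0.143), and was the only one of the 47 genes with that order. Cdk2, the partner of the E-type cyclins, overlapped, at 36.3, 33.8 and 33.5 CPM in WT and 39.7, 42.6 and 32.1 CPM in Null. Ccnd1, Ccnd2, Ccne1 and Ccne2 had log2 fold changes of -0.40, -0.24, -0.29 and -0.16, and none of them passed the test.

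Of the 4 transcription factors, E2f8 and Foxm1 were called. E2f8, an atypical E2F that represses E2F targets, was at 46.7, 41.9 and 42.1 CPM in WT and at 101, 121 and 56.4 CPM in Null. Null 3 was the lowest of the Null libraries but still above all WT, and the log2 fold change was 1.10 ± 0.25 (SE, adjusted p = 0.0191). Foxm1 was at 24.7, 22.1 and 24.3 CPM in WT and at 35.1, 36.2 and 27 CPM in Null, with the same order of Null libraries and a log2 fold change of 0.47 ± 0.13 (SE, adjusted p = 0.0347). Mybl2, which acts at the same step as Foxm1, was at 43.7, 40.1 and 40.5 CPM in WT and at 31.5, 41.4 and 27.1 CPM in Null. Its groups overlapped and its log2 fold change of -0.31 ± 0.15 (SE) was not called.

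Replication genes gave 1 of 10 called. Cdt1, which loads the MCM helicase at origins and is destroyed in S phase, was at 35.8, 30.8 and 38 CPM in WT and at 56, 60 and 53.3 CPM in Null. Here the 3 Null libraries lay close together, all above WT, with a log2 fold change of 0.69 ± 0.11 (SE, adjusted p = 0.00554). Of the helicase subunits, Mcm6 was at 139, 145 and 145 CPM in WT and at 163, 197 and 148 CPM in Null. Mcm7 was at 108, 107 and 116 CPM in WT and at 143, 179 and 126 CPM in Null. Both lay without overlap but neither was called (adjusted p = 0.195 and 0.0622). Pcna, the replication clamp, was at 117, 147 and 105 CPM in WT and at 118, 161 and 110 CPM in Null, with overlap between the groups. Among all genes, 46.6% did not overlap between genotypes in liver, 22.9% with Null above, and of the 47 there were 19 with Null above and 1 with Null below.

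DNA precursor enzymes gave 0 of 3 called by edgeR, 0 at an unadjusted p under 0.05 and 0 by DESeq2. Of all genes in liver, 41.4% had such an unadjusted p and DESeq2 called 24%. Rrm1, the large subunit of ribonucleotide reductase, was at 188, 202 and 191 CPM in WT and at 200, 244 and 193 CPM in Null. Rrm2, its small subunit, was at 183, 156 and 166 CPM in WT and at 233, 256 and 157 CPM in Null. Tyms, thymidylate synthase, was at 32.7, 37.1 and 33.8 CPM in WT and at 28.3, 37.5 and 23.7 CPM in Null. In all 3, Null 3 lay lowest of the Null libraries and the groups overlapped.

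Cdk1 and its cyclins gave 2 of 4 called. Cdk1, the kinase of mitosis, was at 80.4, 79.6 and 80.3 CPM in WT and at 117, 125 and 94.2 CPM in Null. WT libraries differed little, all Null libraries lay above them, and the log2 fold change was 0.49 ± 0.13 (SE, adjusted p = 0.0278). Ccnb1 was at 63.7, 71.6 and 69.5 CPM in WT and at 95.5, 111 and 78.7 CPM in Null, with a log2 fold change of 0.48 ± 0.14 (SE, adjusted p = 0.0408). Ccna2, cyclin A of S and G2 phases, was at 154, 163 and 152 CPM in WT and at 203, 219 and 149 CPM in Null, where Null 3 fell below WT. Ccnb2 did not overlap, with a log2 fold change of 0.38 ± 0.14 (SE, adjusted p = 0.0804).

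Mitosis genes gave 4 of 15 called, and 14 of the 15 had a positive log2 fold change. Mki67, which codes for the Ki-67 antigen that coats mitotic chromosomes, was at 493, 401 and 414 CPM in WT and at 700, 810 and 510 CPM in Null. The groups did not overlap and the log2 fold change was 0.63 ± 0.18 (SE, adjusted p = 0.0408). Kif11, the motor that separates spindle poles, was at 80.3, 71.3 and 78.6 CPM in WT and at 116, 120 and 86.2 CPM in Null, with a log2 fold change of 0.49 ± 0.14 (SE, adjusted p = 0.0433). The kinetochore protein Cenpf and the centromere kinase Aurkb had log2 fold changes of 0.63 and 0.48. Top2a, which untangles sister chromatids, was at 192, 184 and 182 CPM in WT and at 233, 245 and 187 CPM in Null and was not called (adjusted p = 0.178). Birc5, Cenpe and Cdc20 did not overlap between genotypes and were not called, while Plk1 had a log2 fold change of -0.08.

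Null liver 3 was the lowest of the Null livers in 39 of the 43 genes that are not inhibitors, and Null liver 2 the highest in 37 of them. Null liver 3 was above all WT livers in 16 of these 43 and below all of them in 14. The shares of all genes with these orders were not computed. The spread among Null livers thus ran through most of the list, as the plot of all genes by library shows.

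**Figure D2:**
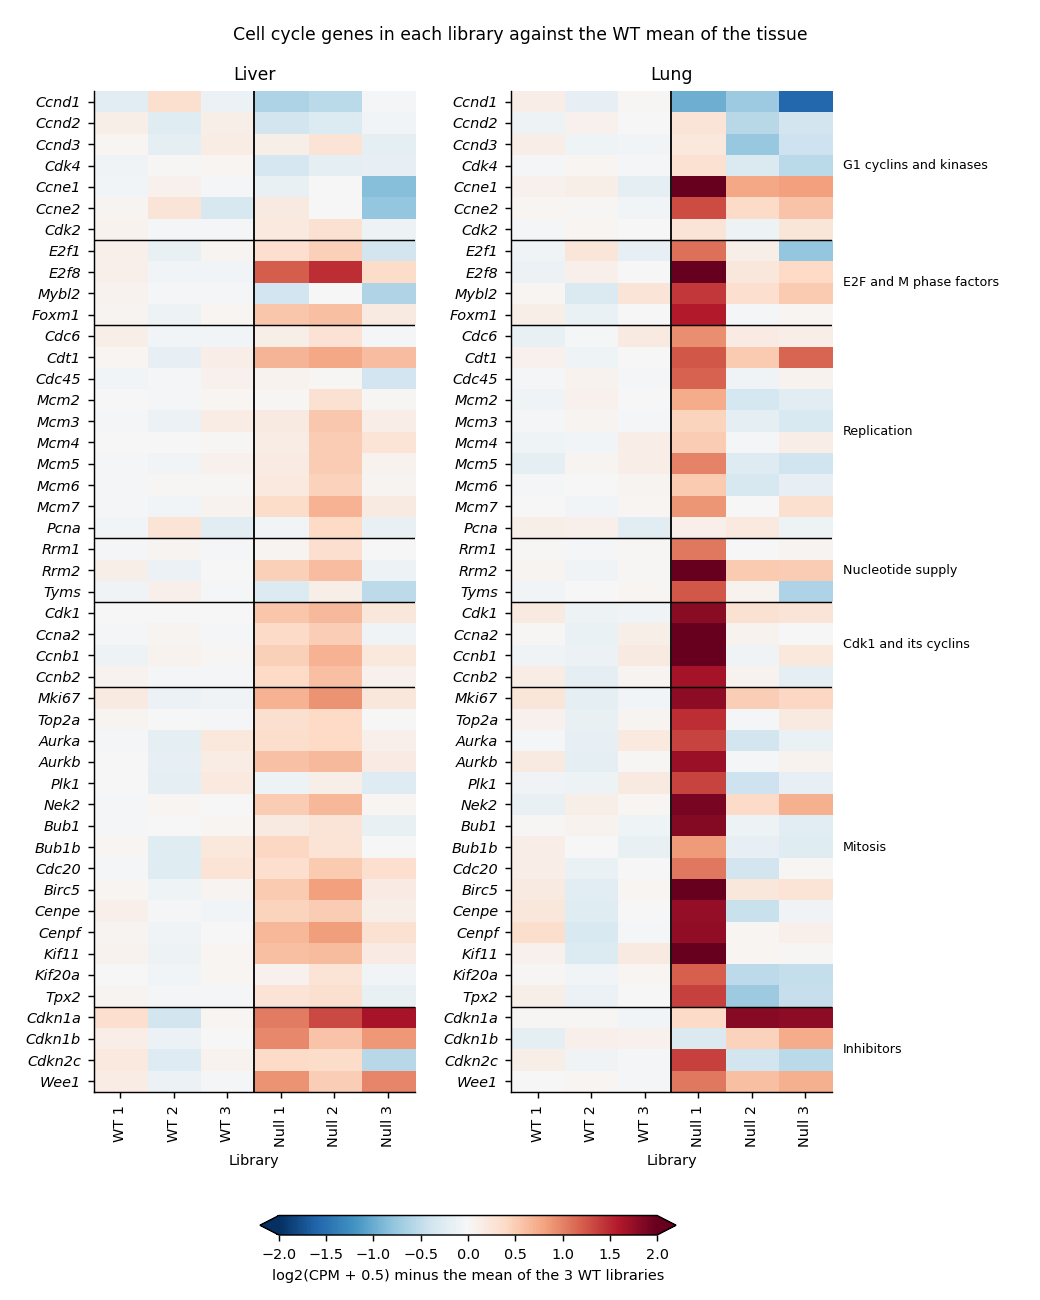
Each of the 47 genes (rows, grouped by role) in each library (columns), as log2(CPM + 0.5) minus the mean of the 3 WT libraries of the same tissue. Colours end at 2 in either direction. In liver, Null 1 and Null 2 are above WT for most late-cycle genes and Null 3 is nearer to WT, and in lung the library labelled Null 1 is the highest of the 6 for 43 of the 47 genes.

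Summed over their lists, the inhibitors were at 147, 101 and 125 CPM in WT livers and at 233, 246 and 291 CPM in Null livers. Cdkn1a alone made up the larger part of this sum in every liver, so the sum and its ratio mostly follow that gene. Mitosis genes summed to 1260, 1110 and 1192 CPM in WT and to 1684, 1867 and 1294 CPM in Null, and replication genes to 794, 811 and 820 CPM in WT and to 912, 1134 and 858 CPM in Null. G1 cyclins and kinases overlapped, at 444 to 471 CPM in WT and 385 to 475 CPM in Null. Within a library, the inhibitor sum over the replication sum was 0.125 to 0.186 in WT livers and 0.217 to 0.34 in Null livers, without overlap, while the mitosis sum over the replication sum was 1.37 to 1.59 in WT and 1.51 to 1.85 in Null, with overlap.

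Blood-forming cells were followed by 23 genes of the red cell lineage, of which 4 haemoglobin genes (Hba-a1, Hba-a2, Hbb-bs and Hbb-bt) were listed at 0 in every liver. The list summed to 3434 to 4277 CPM in WT livers and to 2964 to 5099 CPM in Null livers, and of 19 genes tested 1 was called higher and 1 lower. Among the Null livers it was highest in Null 2 and lowest in Null 3, the same order as most of the cell cycle genes, and its part in the result was not tested. Per library, the mitosis sum over the red cell sum was 0.295, 0.305 and 0.347 in WT livers and 0.401, 0.366 and 0.437 in Null livers, which did not overlap. The highest ratio, in Null 3, came with the lowest red cell sum of all livers. Such ratios were not tested and do not separate cell types. The replication sum over the red cell sum did overlap, at 0.186 to 0.239 in WT and 0.217 to 0.289 in Null. Among other blood lineages, 12 granulocyte genes gave 2 called higher and 0 lower with a median log2 fold change of 0.26, and summed to 1888 to 3634 CPM in WT and 2693 to 4084 CPM in Null. Genes of the megakaryocyte lineage (8) gave 0 called by edgeR, with 1 at an unadjusted p under 0.05, and summed to 236 to 248 CPM in WT livers and to 310, 305 and 210 CPM in Null livers, lowest in Null 3. Of 6 blood progenitor genes 1 was called higher and 2 lower, with sums of 74.8 to 80.6 CPM in WT and 65 to 95.4 CPM in Null. Their part in the result was not tested. The sum of 10 hepatocyte markers was 186164 to 234111 CPM in WT livers and 215580, 198063 and 284205 CPM in Null livers, highest in Null 3.

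**Figure D3:**
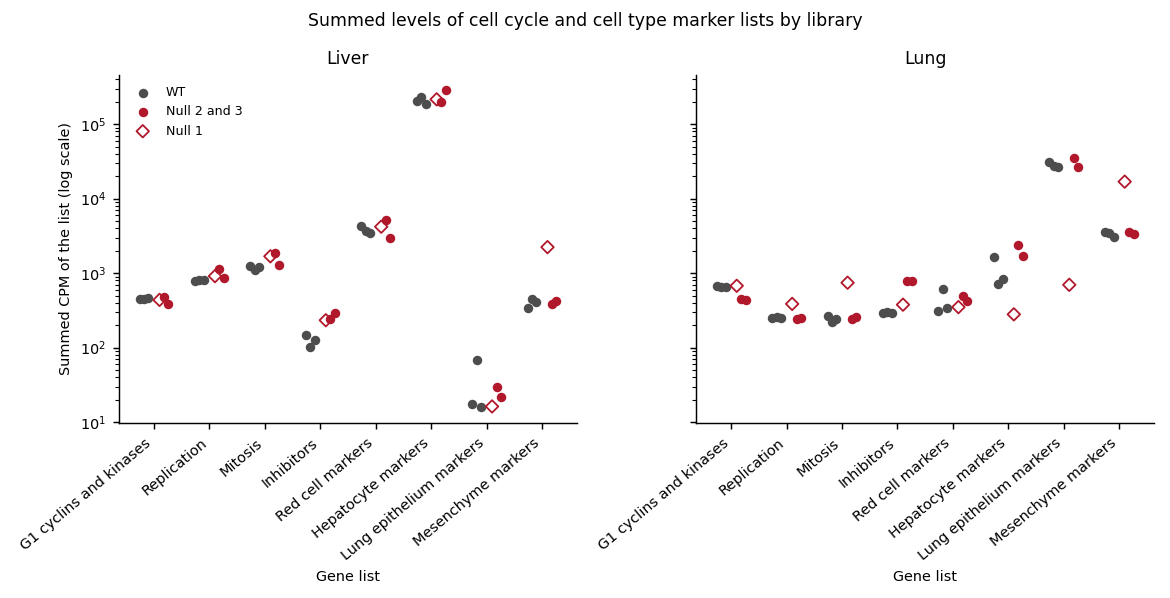
Summed TMM-scaled CPM of 4 lists of cell cycle genes and 4 lists of cell type markers in each library, on a log axis, for liver and lung. Grey points are WT libraries, filled red points Null 2 and Null 3, and the open diamond Null 1. In liver the inhibitor sums do not overlap between genotypes, and in lung the library labelled Null 1 has 698 CPM of lung epithelium markers and 16919 CPM of mesenchyme markers.

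The count in liver depended on single libraries. Leaving out WT liver 1, 2 or 3 gave 4 genes called in each case, all of them higher, where 14.8%, 15.6% and 11.3% of all genes were called. The 4 without WT liver 3 include Cdc20, which was not called with all 6 libraries. Without WT liver 3, 5.53% of all genes were called higher and 5.76% lower. Leaving out Null liver 1 gave 8 (23.8% of all genes called), leaving out Null liver 2 gave 7 (23.3%) and leaving out Null liver 3 gave 19 (21.8%). Of the 7, Mybl2 was lower. Only Cdt1, Cdkn1a and Cdkn1b were called in all 6 of these fits, and Wee1 in 5 of them.

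The sequences before the start sites of Cdk1, E2f8, Mki67 and Kif11, which were called higher in Null liver, are shown beside that of a helicase gene, Mcm6. Each is the 250 bases before the start of a transcript in RefSeq on GRCm38.p6, read 5′ to 3′ on the gene's strand, and 37 of the 47 genes had such an entry. Capitals mark matches to 3 kinds of motif on either strand. The first kind is the CHR element, searched as TTTGAA and in its other form TTCGAA. The second is the CCAAT box, searched by its name's letters. The third is the E2F motif, searched as TTTCCCGC, TTTGGCGC or TTTCGCGC. CHR and CCAAT are known for late-cycle promoters and E2F motifs for promoters of S phase genes. Of the genes called in liver, Cdk1, E2f8, Mki67 and Kif11 are those whose entries hold CHR letters. Entries of Ccnb1, Cenpf, Cdt1, Cdkn1a and Cdkn1b, also called, hold none. Mcm6 has the most E2F matches, 3, while Mcm2 and Mcm3 have none. The sequences shown therefore do not stand for the called genes or the helicase genes as a whole.
Cdk1, chr10:69352913-69353162, minus strand: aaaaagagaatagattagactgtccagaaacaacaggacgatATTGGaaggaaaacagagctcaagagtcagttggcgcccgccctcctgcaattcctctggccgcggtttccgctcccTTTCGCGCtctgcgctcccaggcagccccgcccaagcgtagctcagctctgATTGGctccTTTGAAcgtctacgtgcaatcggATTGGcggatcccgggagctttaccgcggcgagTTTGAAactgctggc
E2f8, chr7:48881597-48881846, minus strand: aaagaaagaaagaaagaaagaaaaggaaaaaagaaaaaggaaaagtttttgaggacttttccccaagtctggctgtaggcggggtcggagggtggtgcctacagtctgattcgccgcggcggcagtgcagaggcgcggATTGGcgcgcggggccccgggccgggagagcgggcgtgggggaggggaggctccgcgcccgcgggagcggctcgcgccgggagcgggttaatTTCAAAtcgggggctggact
Mki67, chr7:135716380-135716629, minus strand: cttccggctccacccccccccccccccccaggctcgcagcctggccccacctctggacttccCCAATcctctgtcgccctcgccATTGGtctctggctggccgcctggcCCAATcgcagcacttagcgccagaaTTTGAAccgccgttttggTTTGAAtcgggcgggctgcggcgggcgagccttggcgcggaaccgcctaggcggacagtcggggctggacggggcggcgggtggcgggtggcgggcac
Kif11, chr19:37376132-37376381, plus strand: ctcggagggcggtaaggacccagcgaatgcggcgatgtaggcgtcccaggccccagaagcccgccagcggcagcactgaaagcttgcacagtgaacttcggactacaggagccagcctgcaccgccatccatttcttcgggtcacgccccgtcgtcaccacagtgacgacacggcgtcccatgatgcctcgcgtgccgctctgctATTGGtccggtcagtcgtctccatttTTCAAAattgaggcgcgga
Mcm6, chr1:128359706-128359955, minus strand: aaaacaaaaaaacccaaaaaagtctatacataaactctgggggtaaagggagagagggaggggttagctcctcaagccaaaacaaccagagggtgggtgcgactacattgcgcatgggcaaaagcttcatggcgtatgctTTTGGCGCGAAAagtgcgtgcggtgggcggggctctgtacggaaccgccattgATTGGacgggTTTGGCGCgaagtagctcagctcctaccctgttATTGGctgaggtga

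CCAAT boxes were found in 26 of the 37 promoters and in 33.8% of all 32851 promoters of the same length. By role, they were in 11 of 12 mitosis promoters, 7 of 9 replication promoters and 1 of 3 inhibitor promoters. CHR letters were found in 11 of the 37 and in 17.1% of all promoters. By role, they were in 5 of 12 mitosis promoters, 3 of 9 replication promoters and 0 of 3 inhibitor promoters. E2F letters were found in 6 of the 37 and in 1.53% of all promoters, of which 4 were replication promoters and 0 of 12 were mitosis promoters. Overlapping matches are marked as a single run of capitals, and a match describes letters and not binding.

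Of the genes called in liver, 9 had a promoter entry, and CCAAT letters were in 7 of these 9 against 19 of the 28 that were not called. CHR letters were in 4 of the 9 and in 7 of the 28, and E2F letters in 1 of the 9 and in 5 of the 28.

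Further genes of the same steps were counted in liver as 4 other lists. These lists too were chosen with earlier results of these data known, so their counts are not independent support. Of all genes tested in liver, 13.5% were called higher and 13.4% lower. Of 62 other mitosis genes, 25 were called higher and 0 lower, with a median log2 fold change of 0.36. That count was 6 without WT liver 2, WT liver 3 or Null liver 2, 9 without WT liver 1, 12 without Null liver 1, 32 without Null liver 3 and 1 in a fit of all 12 libraries. In the same order of fits, 15.6%, 11.3%, 23.3%, 14.8%, 23.8%, 21.8% and 11.9% of all genes were called, in either direction. The largest rises were those of the centromere protein Cenpl (1.06 ± 0.12), the spindle midzone protein Prc1 (0.80 ± 0.13) and the kinesin Kif18b (0.80 ± 0.19; SE). Of 45 other replication genes, only 3 were called higher and 4 lower. Risers were Dtl (1.03 ± 0.10), which targets Cdt1 for destruction, the kinase subunit Dbf4 (0.93 ± 0.12) and the maintenance methylation factor Uhrf1 (0.53 ± 0.16). The largest falls were those of the origin recognition subunits Orc5 (-0.69 ± 0.10) and Orc3 (-0.46 ± 0.10) and of the polymerase alpha subunit Pola2 (-0.46 ± 0.11; SE).

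Other inhibitors and quiescence genes gave 10 called higher and 0 lower of 18 tested, with 6, 5 and 3 higher without WT liver 1, 2 and 3. Of all genes, 13.5% were called higher and 13.4% lower with all livers. In those fits without a WT liver, 14.8%, 15.6% and 11.3% of all genes were called, in either direction. Btg2, an antiproliferative gene, was at 64.7, 57.9 and 66 CPM in WT livers and at 198, 102 and 426 CPM in Null livers, with a log2 fold change of 1.94 ± 0.45 (SE, adjusted p = 0.0196). Ccng2, an atypical cyclin of arrested cells, rose by 1.54 ± 0.14 and Btg1 by 1.33 ± 0.15 on the log2 scale. Of 20 genes of p53 and its targets, 8 were called higher and 2 lower. The 8 became 4, 2 and 2 without WT liver 1, 2 and 3 and 4 without Null liver 3. Without Null liver 3, 21.8% of all genes were called. Trp53inp1 was at 55.9, 53.2 and 50.2 CPM in WT and at 235, 241 and 484 CPM in Null, with a log2 fold change of 2.59 ± 0.29 (SE, adjusted p = 0.00269). The pro-apoptotic genes Bbc3 and Pmaip1 rose by 1.99 ± 0.25 and 1.6 ± 0.40, while the death receptor Fas and the nuclease Aen had log2 fold changes of -0.56 ± 0.14 and -0.50 ± 0.14.

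In lung, 0 of the 47 genes were called with all 6 libraries, where edgeR called 0.327% of 15591 genes tested, 0.0898% higher and 0.237% lower. An unadjusted p under 0.05 was reached by 9 of the 47 and by 25% of all genes, and DESeq2 called 5 of the 47 and 12.1% of all genes, with Ccnd1 lower and Ccne1, Cdt1, Cdkn1a and Wee1 higher. The median log2 fold change of the 47 was 0.53 against 0.06 for all genes. Much of that direction came from 1 library: without the library labelled Null lung 1, the median was 0.02 against -0.01, and 16 of the 47 genes changed sign. In that fit of 5 libraries 37% of 15885 genes were called, 18% higher and 19% lower, and 16 of the 47 were called, 9 higher and 7 lower. At an unadjusted p under 0.05 in that fit there were 17 of the 47 and 48.1% of all genes.

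The library labelled Null lung 1 was above all WT lungs in 44 of the 47 genes, and above Null lungs 2 and 3 in 43. The shares of all genes with these orders were not computed. Mki67 had both orders, at 54.1, 39.5 and 44 CPM in WT lungs and at 158, 64.1 and 60.8 CPM in Null lungs. Top2a was at 44.9, 38.3 and 44 CPM in WT and at 118, 41.7 and 47.9 CPM in Null. Kif11 was at 17.4, 13.4 and 18.5 CPM in WT and at 68.8, 16.7 and 16.6 CPM in Null. In Null lungs 2 and 3, Kif11 lay within the WT range, Top2a within or just above it and Mki67 above it. Mki67 had a log2 fold change of 0.45 ± 0.14 without that library (SE, adjusted p = 0.0433).

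Cdk1 was at 30.7, 25.3 and 25.7 CPM in WT lungs and at 95.5, 33.5 and 32.5 CPM in Null lungs. Ccna2 was at 24.2, 21.7 and 26.1 CPM in WT and at 109, 25.2 and 24.1 CPM in Null, and Ccnb1 was at 12.2, 11.8 and 14.5 CPM in WT and at 52.5, 12.1 and 14.9 CPM in Null. Foxm1 followed the same course, at 15.2, 12.7 and 14.1 CPM in WT and at 43, 13.8 and 14.4 CPM in Null. Without Null lung 1, 0 of the 4 genes of Cdk1 and its cyclins and 0 of the 4 transcription factors were called, and none of these 8 had an unadjusted p under 0.05 in edgeR. Of all genes in that fit, 37% were called and 48.1% had such an unadjusted p. E2f8 was at 4.98, 5.89 and 5.45 CPM in WT and at 32.4, 6.45 and 7.29 CPM in Null, and E2f1 at 7.51, 9.5 and 7.08 CPM in WT and at 17.7, 8.72 and 4.46 CPM in Null. Nek2, a centrosome kinase, was at 11.7, 14.2 and 13.4 CPM in WT and at 50.3, 17.3 and 21.8 CPM in Null. It was called higher without Null lung 1 (0.58 ± 0.16), and the spindle assembly factor Tpx2 was called lower (-0.62 ± 0.16). Tpx2 was at 19.8, 16.9 and 18.2 CPM in WT and at 47.9, 10.8 and 13.1 CPM in Null. The cytokinesis motor Kif20a was likewise lower (-0.52 ± 0.14, SE).

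Of the inhibitors in lung, Cdkn1a and Wee1 were above WT in every Null library. Cdkn1a was at 176, 176 and 167 CPM in WT lungs and at 226, 614 and 599 CPM in Null lungs, all above WT. Its log2 fold change was 1.47 ± 0.39 (SE, adjusted p = 0.105) with all libraries and 1.81 ± 0.09 (SE, adjusted p = 0.000319) without Null lung 1. Wee1 was at 22.8, 23.6 and 22.3 CPM in WT and at 47.9, 35.1 and 37.9 CPM in Null, also without overlap, with 0.82 ± 0.16 (SE, adjusted p = 0.0703) and 0.67 ± 0.11 (SE, adjusted p = 0.00365). Cdkn1b was at 73.9, 90.7 and 89.2 CPM in WT and at 69, 116 and 141 CPM in Null, and was called higher only without Null lung 1, by 0.61 ± 0.13 (SE, adjusted p = 0.0111). Cdkn2c was at 14.4, 12.5 and 12.9 CPM in WT and at 34.8, 10.2 and 8.97 CPM in Null. Null lung 1 was above WT and the other Null lungs below it, and without Null lung 1 Cdkn2c was called lower (-0.47 ± 0.16, SE, adjusted p = 0.0487).

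G1 cyclins in lung split by type. Ccnd1, the D-type cyclin that growth factors induce, was at 203, 165 and 189 CPM in WT and at 93.6, 111 and 61.9 CPM in Null, with all Null libraries below WT. Its log2 fold change was -1.06 ± 0.24 (SE, adjusted p = 0.0823) and -1.10 ± 0.23 (SE, adjusted p = 0.0102) without Null lung 1. Ccnd2 was at 129, 148 and 140 CPM in WT and at 166, 93.9 and 108 CPM in Null, and Ccnd3 at 191, 164 and 168 CPM in WT and at 202, 103 and 131 CPM in Null. Both were called lower only without Null lung 1, as was Cdk4, at 119, 125 and 119 CPM in WT and 150, 98.6 and 82.9 CPM in Null. Ccne1, the cyclin that opens S phase, was at 2.43, 2.5 and 1.91 CPM in WT and at 11.3, 4.23 and 4.39 CPM in Null. It was higher in every Null lung, by 1.54 ± 0.46 (SE, adjusted p = 0.127) with all libraries and by 0.92 ± 0.22 (SE, adjusted p = 0.0156) without Null lung 1. Ccne2, at 5.12, 5.06 and 4.82 CPM in WT and 13.1, 6.68 and 7.68 CPM in Null, was also called higher without Null lung 1 (0.52 ± 0.17, SE). Among all genes, 36.1% did not overlap between genotypes in lung, 16.6% with Null above and 19.5% with Null below, and of the 47 there were 12 with Null above and 1 with Null below. Counting Null lungs 2 and 3 alone, 13 of the 47 lay above all WT lungs and 14 below. That order is less strict, and the share of all genes with it was not computed.

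**Figure D4:**
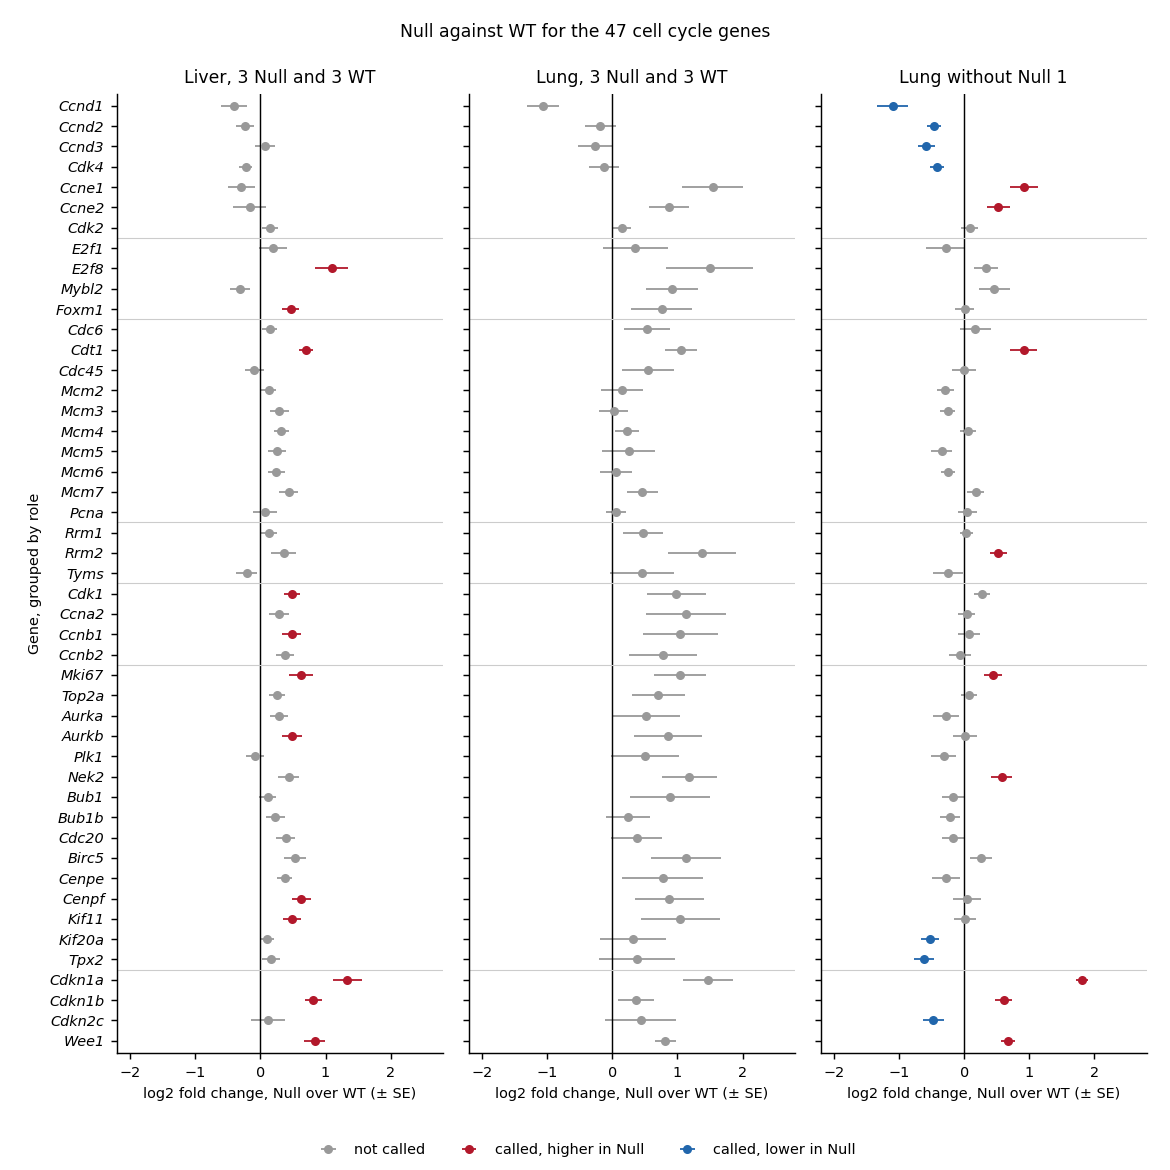
Log2 fold change of Null over WT with its SE for each of the 47 genes, in liver, in lung with all 6 libraries, and in lung without the library labelled Null 1. Red and blue points were called higher and lower. Liver has 12 red points, lung with all libraries has 0 called points with wide errors, and lung without Null 1 has 9 red and 7 blue points.

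Of the replication and precursor genes in lung, 0 of 13 were called with all libraries, and Cdt1 and Rrm2 were called without Null lung 1. Of all genes, 0.327% were called with all libraries and 37% without Null lung 1. Cdt1 was at 8.7, 7.63 and 8.15 CPM in WT and at 20, 11.9 and 18.8 CPM in Null, above WT in every Null library, with a log2 fold change of 1.05 ± 0.25 (SE, adjusted p = 0.088) and of 0.91 ± 0.21 (SE, adjusted p = 0.0141) without Null lung 1. Mcm6 was at 54.3, 55.6 and 58 CPM in WT and at 80.6, 44.5 and 49.8 CPM in Null. Mcm7 was at 31.6, 30.3 and 32.5 CPM in WT and at 58.7, 31.7 and 39.4 CPM in Null. Pcna was at 54.4, 53.8 and 43.3 CPM in WT and at 54, 57.8 and 46.5 CPM in Null, with overlap between the groups. Rrm1 was at 57.2, 54.6 and 57.1 CPM in WT and at 118, 56.8 and 58.5 CPM in Null. Tyms was at 8.24, 8.7 and 8.91 CPM in WT and at 21, 9.09 and 5.46 CPM in Null. Rrm2, at 14.3, 13 and 13.9 CPM in WT and at 67.6, 19.9 and 19.7 CPM in Null, was called higher without Null lung 1 (0.53 ± 0.13, SE, adjusted p = 0.0179).

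The other lists in lung gave 0 called genes with all libraries, among 62 other mitosis, 45 other replication, 19 other inhibitor and 20 p53 genes tested. At an unadjusted p under 0.05 there were 5, 8, 6 and 4, against 25% of all genes. In the same order of lists, DESeq2 called 3 of 61, 7 of 45, 5 of 20 and 3 of 20, all higher, and 12.1% of all genes. A fit of all 12 libraries called 5 of 61, 8 of 45, 5 of 19 and 3 of 20, all higher, and 14.1% of all genes. Without Null lung 1, 5 other mitosis genes were higher and 3 lower, and 7 other replication genes were higher and 12 lower. Of all genes, 18% were called higher and 19% lower without that library. The kinetochore protein Zwint (0.64 ± 0.11), the Cdk-binding Cks2 (0.62 ± 0.15) and the phosphatase Cdc25b (0.56 ± 0.13) rose most among mitosis genes, and Cks1b (-0.64 ± 0.14), Smc2 (-0.63 ± 0.13) and Ncaph (-0.58 ± 0.15) fell most. Among replication genes Dbf4 (1.58 ± 0.10), Dtl (1.13 ± 0.19) and Chaf1b (0.87 ± 0.15) rose most, and Timeless (-1.08 ± 0.18) and Pola2 (-0.81 ± 0.15) were among those that fell. Of the inhibitor and quiescence genes 8 rose, led by Lin52 (0.96 ± 0.20), Ccng2 (0.85 ± 0.11) and Btg1 (0.71 ± 0.11), and E2f6 fell (-0.65 ± 0.14). Of the p53 genes 7 rose, led by Trp53inp1 (2.59 ± 0.14), Perp (1.81 ± 0.11) and Pmaip1 (1.78 ± 0.30), and Trp53 itself fell (-0.56 ± 0.14; SE throughout).

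Lung and liver were set side by side by the difference of their genotype effects, fitted as an interaction over all 12 libraries. The main fit did not pair libraries by number, and a fit that did called 0 of the 47 and 0 of 16155 genes. In the main fit with all libraries 0 of the 47 were called, where 0.371% of 16155 genes were. An unadjusted p under 0.05 in edgeR was reached by 3 of the 47 (Ccne1, Ccne2 and Mybl2) and by 13.9% of all genes. DESeq2 called Ccne1 and 3.08% of all genes. Without the library labelled Null lung 1, 5% of 16257 genes were called, 2.29% with a higher and 2.71% with a lower effect in lung, and 2 of the 47 were. Ccne1 was at 38.6, 42.2 and 39.2 CPM in WT livers and at 36, 40.3 and 21.8 CPM in Null livers, and its effect in lung exceeded that in liver by 1.23 ± 0.30 (log2, SE, adjusted p = 0.0454). Kif20a was at 47.3, 45.1 and 48.2 CPM in WT livers and at 50, 56.5 and 45.1 CPM in Null livers, and at 15.2, 14.4 and 15.3 CPM in WT lungs and at 35, 10.2 and 10.6 CPM in Null lungs. Its effect in lung was below that in liver by a log2 difference of -0.61 ± 0.15 (SE, adjusted p = 0.0411). With libraries of the same number paired, and Null liver 1 left out as well, Kif20a was no longer called (-0.63, edgeR adjusted p = 0.0703) and Ccne1 was (1.35, edgeR adjusted p = 0.0295). Called higher both in liver and in lung without Null lung 1 were Cdkn1a, Cdkn1b, Cdt1, Mki67 and Wee1, which are 5 of the 12 called higher in liver and 5 of the 9 called higher in lung. The share of all genes called higher in both fits was not computed, so this sharing cannot be set against it. For Cdkn1a and Wee1 the difference between tissues was not called in either fit.

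WT liver and WT lung differed for 47 of 47 genes, in a comparison that called 77% of 15635 genes tested, 37.2% higher and 39.8% lower in liver. Of the 47, 42 were higher in liver and 5 were lower, and their median log2 difference was 2.68 against -0.04 for all genes. The widest difference was that of Ccne1, at 4.92 ± 0.13 on the log2 scale (SE, adjusted p = 4.15e-09), followed by the licensing factor Cdc6 (4.59 ± 0.13) and Mybl2 (4.51 ± 0.15). The 5 genes lower in liver were Ccnd1 (-1.93 ± 0.16), Ccnd2 (-1.67 ± 0.12), Cdkn1b (-0.98 ± 0.11), Cdkn1a (-0.55 ± 0.16, adjusted p = 0.00949) and Wee1 (-0.36 ± 0.11, SE, adjusted p = 0.013). Thus 3 of the 4 inhibitors and 2 of the 3 D-type cyclins were higher in lung, and every replication, precursor and mitosis gene of the list was higher in liver.

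Levels between genes were compared as CPM per kilobase of exon, with TMM scaling over the 6 WT libraries of both tissues. In WT liver Rrm2 had the highest mean, at 90.2, 77.7 and 82.9 CPM per kb, and stood at 4.13, 3.72 and 3.98 CPM per kb in WT lung. Next in liver were Pcna at 70.8 ± 12.7 CPM per kb and Mki67 at 59.6 ± 6.33 CPM per kb (SD, n = 3). In WT liver 2 Pcna, at 85 CPM per kb, was above Rrm2, and neither Rrm2 and Pcna nor Pcna and Mki67 differ beyond their spread. In WT lung Cdkn1a was highest, at 39.7, 39.3 and 37.3 CPM per kb, followed by Ccnd1 at 31.3 ± 3.41 CPM per kb and Cdk4 at 29.5 ± 0.753 CPM per kb (SD, n = 3), of which the last 2 overlap. In lung, Rrm2 took rank 19 and Mki67 rank 22 of the 47.

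**Figure D5:**
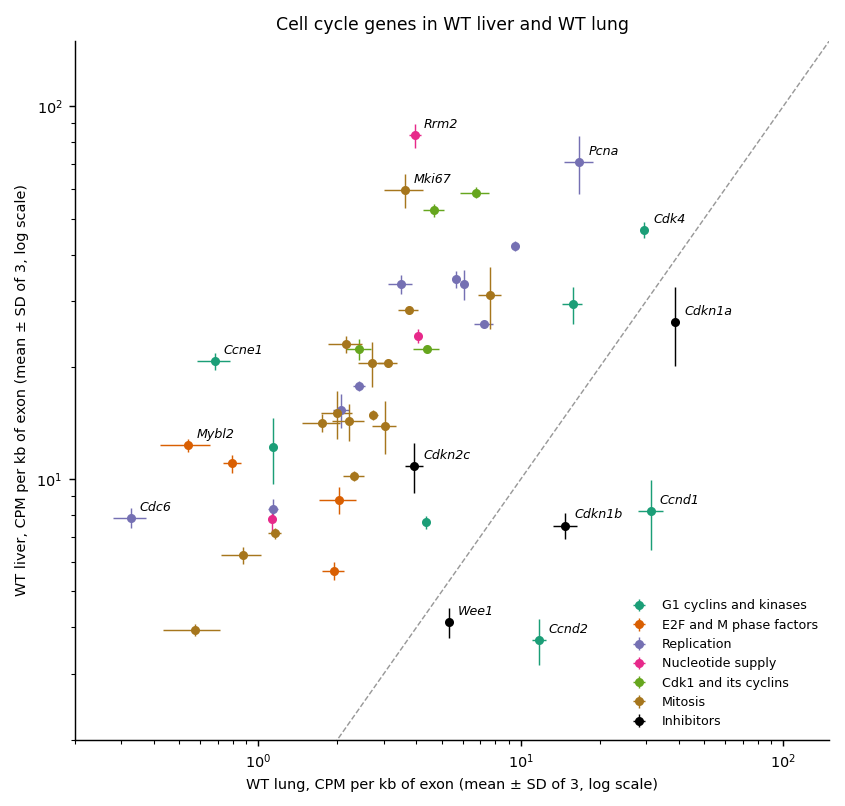
Level of each of the 47 genes in WT liver against WT lung, in CPM per kilobase of exon on log axes, as the mean ± SD of 3 libraries, coloured by role. The dashed line marks equal levels, and below it lie Ccnd1, Ccnd2, Cdkn1a, Cdkn1b and Wee1.

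Strand setting of the counting was not given in the sources used here, so reads of genes that overlap in opposite directions may be shared. Among others, exons of Kif20a overlap Cdc23 over 1271 bases, those of Ccnd1 overlap LTO1 over 1100, those of E2f8 overlap Gm2788 over 610, those of Ccne2 overlap Ints8 over 609 and those of Cdkn1a overlap AC167363.2 over 273, in GENCODE M21.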

How the data were processed

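Polyadenylated RNA of newborn liver and lung, from WT and Null mice, was sequenced with a strand-marking kit in 4 groups of 3 libraries. The authors deposited raw read counts per gene for each library, without normalization. The submitters' processing notes name FastQC, STAR 2.5.2a, DESeq2 and mm10. The counting program, the annotation and the strand setting are not given in the sources used here. Library totals ran from 26759463 to 42914295 counts, and 27 gene names had been turned into dates.

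Counts were fitted in R 4.3.3 with edgeR 4.0.16 (filterByExpr, TMM, quasi-likelihood test), within each tissue for genotype, over the 6 WT libraries for tissue, and over all 12 for the difference of the genotype effects. Adjustment was by Benjamini-Hochberg over all genes tested. Genes were called at an adjusted p under 0.05 where the fold was 1.2 or more in either direction. For the SE, the absolute log2 fold change was divided by the root of its F statistic. Levels are CPM scaled by TMM within a tissue (per kilobase, over the 6 WT libraries), those of Man1a2 and the floors (3 counts, counting error only) CPM of the library total. Alternatives used DESeq2 1.42.0, other scalings and filters, a GC and length correction, 1 fit of all libraries, a replicate block and leaving out each library. The script was tested on simulated data.

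The members and lists were chosen with earlier results of these data known. Values in every library are given for inhibitors, the 3 genes of each other role with the highest mean level in that tissue, the 3 called genes with the largest rise or fall, and genes called in lung or in the difference between tissues (the 6 largest if more). Of the other lists, the 3 largest called rises and falls with mean log2 CPM of at least 1 are named, except 1 gene that is not reported here. Libraries of the same genotype and number deviated together in liver and lung (r = 0.313, 0.26 and 0.223 for WT, 0.419, 0.311 and 0.398 for Null). The numbers were therefore taken as pairs between tissues in the replicate block, which is an alternative. The main fits between tissues did not use these pairs. No 2 libraries of a group were alike within sampling noise.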

Additional observations from a re-analysis of the deposited data

Results flagged for a closer look

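For 2 genes the effect of the genotype in lung differed from that in liver by the test of the difference itself, once the library labelled Null lung 1 was left out. This test did not pair libraries by number. Ccne1 had a log2 difference, lung minus liver, of 1.23 ± 0.30 (SE, edgeR adjusted p = 0.0454). It was higher in Null than in WT in 3 of 3 Null lungs. With all 12 libraries the difference was 1.81 ± 0.51 (SE, adjusted p = 0.161) and was not called. Kif20a had a log2 difference of -0.61 ± 0.15 (SE, adjusted p = 0.0411). With libraries of the same number paired and Null liver 1 also left out, Kif20a was not called (-0.63, edgeR adjusted p = 0.0703), while Ccne1 was (1.35, edgeR adjusted p = 0.0295). For Kif20a, Null lungs 2 and 3 lay below all WT lungs, and the library labelled Null lung 1 lay above them.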

How the results depend on the processing

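In liver the count of called genes was 12 and became 6 with upper-quartile scaling (28.6% of all genes called, 26.9% before) and 4 in a fit of all 12 libraries (11.9%), and it ran from 4 to 19 when single libraries were left out. The upper-quartile scaling moved the median of all genes from 0.02 to -0.09. In lung the count was 0 and became 5 with DESeq2 (12.1% of all genes) and 6 in the fit of all libraries (14.1%), and it ran from 0 to 16, reaching 16 without Null lung 1. The difference between tissues had 0 called genes, 1 with DESeq2 (3.08% of all genes), and 0 to 2 with single libraries left out. A replicate block without both Null 1 libraries, added after seeing the data, gave 1, Ccne1 (6.13% of all genes), and lost Kif20a. The cause was not tested. The count between WT tissues was 45 to 47 under every setting run.

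The numbers did not pair WT with Null within a tissue (r from -0.0394 to 0.161), and the replicate block gave 8 called genes in liver (23% of all genes) and 0 in lung. Between tissues, where the numbers paired, it gave 0 for the difference and 47 for WT liver against WT lung.

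Signs turned for these log2 values. In liver, Ccnd3 was -0.033 and Pcna -0.037 with upper-quartile scaling, and Ccnd3 was -0.020 with the GC and length correction. In lung, Mcm3 was -0.00686 with a minimum of 1 count and -0.020 with the replicate block. The difference between tissues for Kif20a was -0.053 with the block and -0.63 with the block without both Null 1 libraries.

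With single libraries left out, signs turned in liver for Ccnd3 (-0.050 to 0.19), Pcna (-0.13 to 0.22), Cdkn2c (-0.041 to 0.37), E2f1 (-0.00081 to 0.41), Plk1 (-0.20 to 0.021), Ccne2 (-0.36 to 0.079) and Cdc45 (-0.17 to 0.044). In lung they turned for Mcm3 (-0.25 to 0.16), E2f1 (-0.28 to 0.71), Mcm2 (-0.29 to 0.35), Mcm5 (-0.35 to 0.49), Mcm6 (-0.25 to 0.22), Tyms (-0.24 to 0.79), Ccnb2 (-0.062 to 1.09), Aurka (-0.28 to 0.83), Plk1 (-0.32 to 0.81), Bub1 (-0.17 to 1.22), Bub1b (-0.22 to 0.43), Cdc20 (-0.17 to 0.64), Cenpe (-0.28 to 1.14), Kif20a (-0.52 to 0.60), Tpx2 (-0.62 to 0.73), Cdkn2c (-0.47 to 0.75), Pcna (-0.039 to 0.15) and Cdk4 (-0.41 to 0.037). The difference between tissues for Kif20a ran from -0.61 to 0.50.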
